A study of Bos taurus with 18 samples.

Results

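The exosomal (EX) RNA fraction of plasma was compared between 30 and 25 months of age in Japanese Black steers, a beef breed, during fattening. The comparison holds 6 of the 18 small RNA libraries of the series, 3 at each age, and 345 of the 1071 miRNAs in the count table. These 345 had a CPM-normalized count (CPM, counts scaled to an equal library total) that exceeded 5 in 3 or more of the 9 EX libraries, and all tests were run on them. The same 3 steers were sampled at each age, and a replicate number is taken to stand for the same steer, which the sample titles do not say. No treatment other than age separates the groups. All plasma was drawn from the jugular vein in the morning with EDTA, and the EX RNA of 1 mL was isolated with a column kit that yields exosomal and free-circulating (FC) RNA from the same sample. The 3 EX libraries of 20 months were kept in the model, and the 9 FC libraries of the same plasma samples were used only where the fractions are set against each other. Each age was 1 sampling occasion per steer, so age cannot be told apart from anything else that changed between the occasions. The miRNA counts hold no marker of vesicles, so the exosomal label itself could not be checked.

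Mature miRNAs are short RNAs that guide Argonaute proteins to mRNAs, mostly by pairing of the seed, here bases 2 to 8 counted from the 5′ end. MiRNAs that share a seed form a family with overlapping targets. Cells export miRNAs in vesicles, and plasma mixes the vesicles of blood cells, vessel wall, liver, gut and other tissues. Some miRNAs are strongly enriched in 1 cell type, such as *bta-miR-122* in hepatocytes or *bta-miR-150* in lymphocytes, and serve as markers of the source, although no source was measured directly in these samples.

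The sequences below are those on which the results turn, with the seed in capitals. The first set holds miRNAs that were higher at 30 months, among them *bta-miR-130a* and *bta-miR-130b*, which share a seed and differ at 2 of 22 positions.
candidate-miR-40: gUCCGGUUguucuucucu
bta-miR-375: uUUUGUUCguucggcucgcguga
bta-miR-1246: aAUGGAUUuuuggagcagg
bta-miR-130a: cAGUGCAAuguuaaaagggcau
bta-miR-130b: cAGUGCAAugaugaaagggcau
bta-miR-320a: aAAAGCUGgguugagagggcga

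The second set holds 5 of the blood cell miRNAs that were lower at 30 months and *bta-miR-374a*, with no seed shared among them.
bta-miR-150: uCUCCCAAcccuuguaccagugu
bta-miR-342: uCUCACACagaaaucgcacccaucu
bta-miR-142-5p: cAUAAAGUagaaagcacuac
bta-miR-142-3p: aGUGUUUCcuacuuuauggaug
bta-miR-451: aAACCGUUaccauuacugaguuu
bta-miR-374a: uUAUAAUAcaaccugauaagug
The third set shows 5 members of the miR-30 family, which share the whole seed and of which 3 were called lower. *bta-miR-30b-5p* and *bta-miR-30c* differ at 4 of 22 positions, whereas *bta-miR-30a-5p* differs from *bta-miR-30d* and from *bta-miR-30e-5p* at 1 of 24 positions each.
bta-miR-30b-5p: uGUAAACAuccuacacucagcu
bta-miR-30c: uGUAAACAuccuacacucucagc
bta-miR-30e-5p: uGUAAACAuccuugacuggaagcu
bta-miR-30a-5p: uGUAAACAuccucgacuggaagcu
bta-miR-30d: uGUAAACAuccccgacuggaagcu

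Between 25 and 30 months, 4 of 7 lymphocyte miRNAs and both arms of the blood cell miRNA miR-142 fell in EX, together with *bta-miR-30b-5p*, *bta-miR-30c*, *bta-miR-374a* and both tested members of the miR-26 family. *bta-miR-375*, *bta-miR-1246*, *bta-miR-320a*, 2 members of the miR-130 family and 2 candidate miRNAs rose. In total 49 of the 345 miRNAs (14.2%) were DE-miRNAs, of which 13 (3.77% of the tested) were higher and 36 (10.4%) were lower at 30 months. A DE-miRNA had a false discovery rate (FDR) under 0.05 in the paired quasi-likelihood test of edgeR, adjusted over all 345, and an absolute log2 fold change over 1. All 49 changed in the same direction in each of the 3 steers, while over all 345 tested miRNAs 81 were higher and 81 lower in each steer. In none of the 49 did the 3 values of 25 months overlap the 3 of 30 months. Direction by steer and overlap were read on CPM, which is scaled to library totals alone, whereas the calls were made after TMM scaling. Values that did not overlap were frequent among all tested miRNAs as well, at 129 of 345 (37.4%). Log2 fold changes are on the scale of TMM-normalized counts, on which the median over all tested miRNAs was −0.51. When the data were scaled to library totals alone, that median was −0.04, the number of DE-miRNAs 42, and the calls divided evenly into 21 higher and 21 lower. All 13 higher and 21 of the 36 lower DE-miRNAs were also called on library totals. With 2 steers fewer calls were made, 18 without steer 1, 0 without steer 2 (with 86 at an unadjusted p under 0.05 in edgeR) and 1 without steer 3. With a steer or a library left out, log2 fold changes ranged from −4.65 to −3.42 for *bta-miR-150*, from −3.28 to −2.62 for *bta-miR-30b-5p*, from 1.44 to 1.77 for *bta-miR-375* and from 2.66 to 3.04 for *candidate-miR-40*. They ranged more widely in *bta-miR-32* (−3.67 to −2.04), *bta-miR-451* (−2.68 to −1.51) and *bta-miR-26a* (−2.38 to −1.32), and to below the fold threshold in *bta-let-7g* (−1.63 to −0.75) and *bta-miR-152* (0.69 to 1.33).

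**Figure D1:**
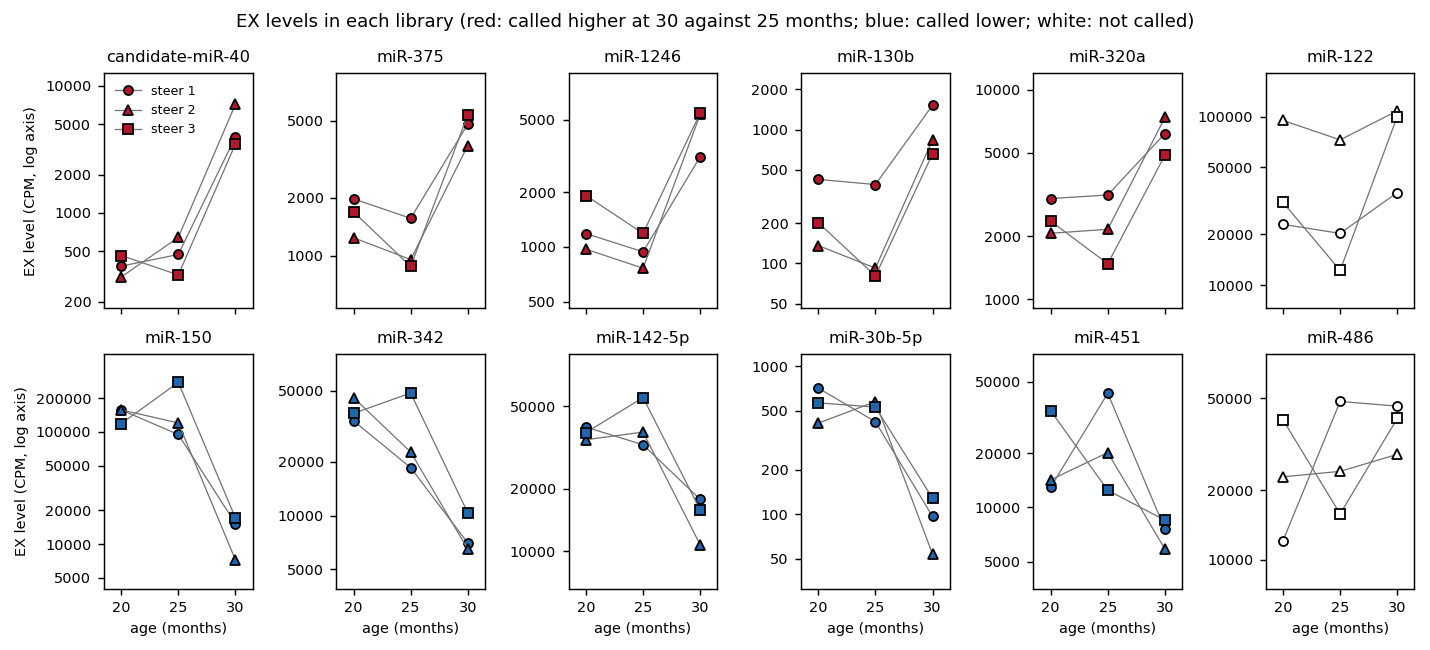
CPM-normalized EX levels (log axis) of 12 miRNAs against age in months, with 1 marker shape and line per steer. Red miRNAs were called higher at 30 against 25 months, blue ones lower, and white ones (*bta-miR-122*, *bta-miR-486*) were not called. In every red or blue panel the 3 values at 30 months lie on 1 side of the 3 at 25 months.

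All libraries of 30 months were sparser than those of 25 months, and most were shallower. Library totals were 1837454 to 2437284 counts at 25 months and 991354 to 1988408 at 30 months. Of the tested miRNAs, 16 to 34 had 0 counts in a library of 25 months and 78 to 111 in a library of 30 months. The 30 months library of steer 1 had more counts than the 25 months library of steer 2, but 96 miRNAs at 0 against 34. Few low counts stood beside these zeros: 16 to 27 miRNAs had counts above 0 and up to 20 at 30 months, against 40 to 59 at 25 months. The part of depth in the results below was not tested. The rows of *bta-miR-181b*, *bta-miR-194* and *bta-miR-194b* are in doubt. In 7 EX libraries, which include all 6 compared here, *bta-miR-181b* ranged from 3135 to 13829 CPM and *bta-miR-194* was listed at 0, whereas in the other 11 libraries of the series the values were 87.8 to 332 CPM and 3767 to 26514 CPM. Both ages show the pattern alike, and the lymphocyte list is given with and without *bta-miR-181b*.

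**Figure D2:**
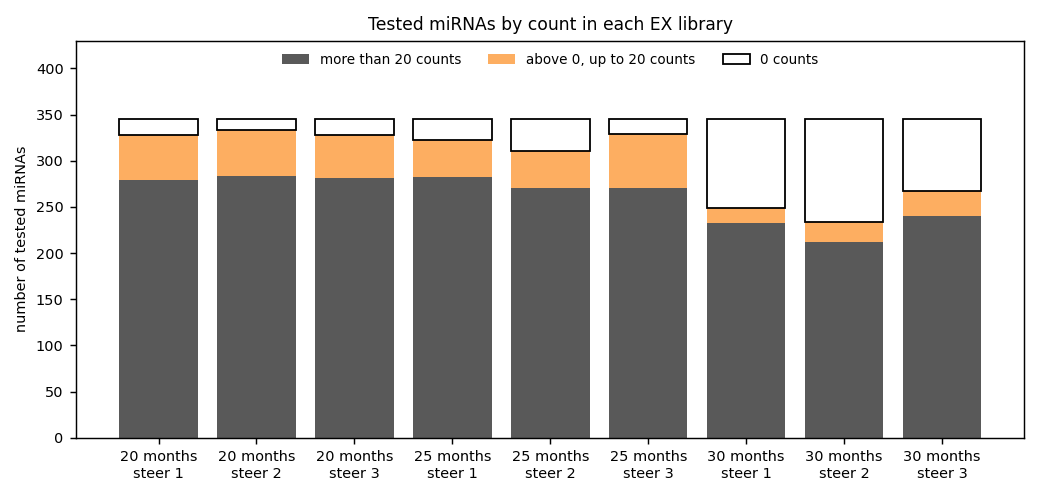
Number of the 345 tested miRNAs in each of the 9 EX libraries with more than 20 counts (grey), with counts above 0 and up to 20 (orange) and with 0 counts (white). The libraries of 30 months have 78 to 111 miRNAs at 0, those of 25 months 16 to 34.

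Lymphocyte miRNAs had the lowest median change of the 13 source lists. Of the 7 on the list, 4 fell, 0 rose and 3 did not pass, against 10.4% lower over all tested miRNAs. The median log2 fold change was −2.31 (−1.84 on library totals), against −0.51 over all tested miRNAs. Among the 3 not called, *bta-miR-181b*, a row in doubt, had an estimate of 0.31 (SE 0.87) and *bta-miR-181c* one of −1.15 (SE 2.80). The third, *bta-miR-181d*, was at 0 in all libraries of 30 months. *bta-miR-150*, which accumulates in mature B and T cells, stood at 94908, 120314 and 276263 CPM in steers 1, 2 and 3 at 25 months and at 15283, 7248 and 17120 CPM at 30 months. The lowest value of 25 months thus lay far above the highest of 30 months, and steer 3 gave the highest value of both ages. The log2 fold change was −4.06 (SE 0.60, FDR 0.00452). As a share of the library, *bta-miR-150* took 9.49 to 27.6% at 25 months and 0.725 to 1.71% at 30 months.

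*bta-miR-342*, also enriched in lymphocytes, went from 18507, 22655 and 48429 CPM to 7016, 6475 and 10344 CPM (log2 fold change −2.31, SE 0.41, FDR 0.00794). For *bta-miR-181a*, which tunes T cell receptor signalling, the values were 1662, 1475 and 2963 CPM at 25 months and 342, 820 and 510 CPM at 30 months (−2.37, SE 0.41, FDR 0.00794). Steer 1 held the lowest value of *bta-miR-181a* at 30 months and steer 2 the highest, and the ages did not overlap for either miRNA. *bta-miR-155*, induced in activated lymphocytes and macrophages, fell least of the 4, from 1935, 2599 and 2645 CPM to 1672, 706 and 786 CPM (−1.67, SE 0.45, FDR 0.0413), and was not called on library totals. On the CPM scale steer 1 moved little in *bta-miR-155*, which was named after its values were seen. The 7 miRNAs together summed to 122819, 154847 and 333442 CPM at 25 months and to 31172, 29078 and 39115 CPM at 30 months. Without the row of *bta-miR-181b* the sums were 117027, 147084 and 330307 CPM at 25 months and 24313, 15249 and 28790 CPM at 30 months, 4 of 6 members were called and the median log2 fold change was −2.34. In plasma, fewer cells of a type and less RNA exported per cell cannot be told apart. Over the alternatives in scaling, filter, test, block and use of the 20 months libraries, 3 to 5 were called lower, of 7 tested (of 5, with 4 lower, where a mean CPM above 100 was required), and with a steer or library left out 0 to 4 of 7. In the latter the log2 fold change stayed between −2.68 and −1.81 for *bta-miR-342* and between −2.96 and −1.86 for *bta-miR-181a*.

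MiR-142 comes from a locus active throughout the blood lineages, and both of its arms fell. *bta-miR-142-5p* had 32629, 37547 and 55113 CPM at 25 months and 17763, 10727 and 15803 CPM at 30 months (log2 fold change −1.96, SE 0.35, FDR 0.00794). The other arm *bta-miR-142-3p* was less abundant, with 1259, 1960 and 2407 CPM against 624, 412 and 489 CPM (−2.34, SE 0.36, FDR 0.00516). In both arms each steer had less at 30 months.

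Of the 3 myeloid miRNAs 0 passed, a number too small to set against the 14.2% called over all tested miRNAs. *bta-miR-223*, the main miRNA of granulocytes, stood at 26960, 38157 and 9652 CPM at 25 months and at 29918, 25337 and 26625 CPM at 30 months. The ages overlapped, with the low value of steer 3 at 25 months as the outermost one, and the log2 fold change of −0.23 (SE 0.44, FDR 0.797) turned to 0.19 on library totals. *bta-miR-146a*, induced by inflammatory signalling, had a log2 fold change of −0.97 (SE 0.29, FDR 0.0561). Whether the change of the myeloid miRNAs differs from that of the lymphocyte miRNAs was not tested.

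Of 3 red cell miRNAs 1 fell, a number too small to set against the 10.4% lower over all tested miRNAs. *bta-miR-451*, which matures through Argonaute without Dicer and accumulates in red cells, stood at 43037, 20165 and 12461 CPM at 25 months and at 7592, 5882 and 8502 CPM at 30 months. All 3 values of 30 months lay below the lowest of 25 months, although steer 3 was close, and the log2 fold change was −2.20 (SE 0.51, FDR 0.0269), a call that was lost on library totals. *bta-miR-486*, encoded within ANK1 and made in red cells and muscle, did not pass, with 48398, 24151 and 15809 CPM against 46216, 28599 and 40868 CPM. Its log2 fold change of −0.04 (SE 0.54, FDR 0.976) had no stable sign and was 0.39 on library totals. *bta-miR-144*, transcribed together with *bta-miR-451*, had a log2 fold change of −1.76 (SE 0.57, FDR 0.0767). The difference between *bta-miR-451* and *bta-miR-486* was not tested.

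Of the 5 liver and gut miRNAs tested 0 passed, a number too small to set against the 14.2% called over all tested miRNAs. Their estimates went in both directions. The median log2 fold change was −1.26 for the 2 liver miRNAs and 0.19 for the 3 of gut, liver and kidney epithelium, or 0.46 without *bta-miR-194b*, a row in doubt. The liver median is the midpoint of a positive estimate for the abundant *bta-miR-122* and a negative one for the scarce *bta-miR-885*. Summed over these 2, the mean was 35209 CPM at 25 months and 81516 CPM at 30 months. *bta-miR-122*, made almost entirely by hepatocytes, stood at 20279, 72979 and 12218 CPM at 25 months and at 35472, 108600 and 100406 CPM at 30 months. Each steer had more at 30 months, yet the ages overlapped because steer 2 was already high at 25 months. The log2 fold change was 1.04 (SE 0.46, FDR 0.166), and 0.36 to 1.47 with a steer or library left out. *bta-miR-192*, shared by gut, liver and kidney epithelium, went from 39464, 46678 and 19911 CPM to 63472, 84194 and 80843 CPM without overlap (0.73, SE 0.30, FDR 0.145). Its relative *bta-miR-215* had a log2 fold change of 0.19 (SE 0.25, FDR 0.696), which became −0.10 when *bta-miR-93* was held level. *bta-miR-194b* went from 250, 283 and 369 CPM to 145, 168 and 126 CPM (−1.16, SE 1.70, FDR 0.732), and *bta-miR-194* was listed at 0 in all 6 libraries. The second liver marker, *bta-miR-885*, had 27.5, 75.1 and 49.6 CPM at 25 months and 0, 0 and 70.2 CPM at 30 months.

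Of the 11 epithelial miRNAs tested, 0 rose and 2 fell, against 3.77% higher and 10.4% lower over all tested miRNAs, while the median log2 fold change was 0.65 (1.10 on library totals), above the −0.51 of all tested miRNAs. The 5 members of the miR-200 and miR-141 family, which hold the epithelial state by repressing ZEB factors, all had positive estimates and none passed. *bta-miR-141* went from 3944, 4589 and 1900 CPM to 5889, 8780 and 6846 CPM without overlap (0.65, SE 0.23, FDR 0.104). *bta-miR-200c* had a log2 fold change of 1.00 (SE 0.33, FDR 0.0832) and *bta-miR-200a* one of 0.63 (SE 0.35, FDR 0.262). On library totals 3 members of the epithelial list were called higher, 2 of them of this family. The epithelial miRNAs that fell were *bta-miR-184*, abundant in cornea, and *bta-miR-31*. *bta-miR-184* had 1587, 330 and 304 counts at 25 months and 0 in all 3 libraries of 30 months. *bta-miR-31*, named after its values were seen, went from 265, 232 and 455 CPM to 126, 76.7 and 88.7 CPM (−2.18, SE 0.53, FDR 0.0299), a call that was lost on library totals.

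The endocrine list held the 1 source marker that was called higher. *bta-miR-375*, the main miRNA of pancreatic islets and also made by neuroendocrine and gut cells, stood at 1564, 956 and 881 CPM at 25 months and at 4812, 3726 and 5376 CPM at 30 months. The ages were far apart, and the log2 fold change was 1.60 (SE 0.21, FDR 0.00295). *bta-miR-7*, the other member of the list, had a log2 fold change of 1.31 (SE 0.75, FDR 0.285). *bta-miR-375* was called under all 9 alternatives in scaling, filter, test, block and use of the 20 months libraries.

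In the remaining source lists, as over all tested miRNAs (14.2%), most members were not called, and lists this small are not set apart by their counts. In the vessel wall list, *bta-miR-126-3p* and *bta-miR-126-5p* of endothelium and *bta-miR-143* and *bta-miR-145* of smooth muscle, 0 of 4 passed, with a median log2 fold change of −0.19 that was 0.24 on library totals. Of 5 muscle miRNAs 0 passed, with a median of 0.42. *bta-miR-206*, the most abundant of them over the EX libraries, had 37.9, 16.9 and 22.6 CPM at 25 months and 253, 0 and 189 CPM at 30 months (1.19, SE 1.65, FDR 0.715, and −0.58 without the 30 months library of steer 3). *bta-miR-1* of heart and skeletal muscle stood at 37.0, 44.9 and 13.7 CPM at 25 months against 171, 48.4 and 202 CPM at 30 months (1.79, SE 1.00, FDR 0.268), while *bta-miR-499* had an estimate of −2.17 (SE 1.74, FDR 0.454). With a steer or library left out, the estimates ranged from 0.86 to 2.57 for *bta-miR-1* and from −3.54 to −0.18 for *bta-miR-499*. In the fat and metabolism list 0 of 8 passed. Its most abundant members, *bta-miR-103* and *bta-miR-107* of insulin signalling, had log2 fold changes of −0.47 and −0.70. Of 8 neural miRNAs 1 fell, *bta-miR-132*, which neurons induce with activity, with 72.0, 132 and 173 counts at 25 months and 0 at 30 months. Of the 53 miRNAs of the imprinted DLK1-DIO3 cluster 18 were tested and 1 fell, *bta-miR-154c*. It had a mean of 24.0 CPM at 25 months, and at 30 months 1 count in steer 3 and 0 in the other steers. *bta-miR-154c*, named after its values were seen, passed the filter only through libraries of 20 and 25 months, which favours a lower call. It was not called on library totals.

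**Figure D3:**
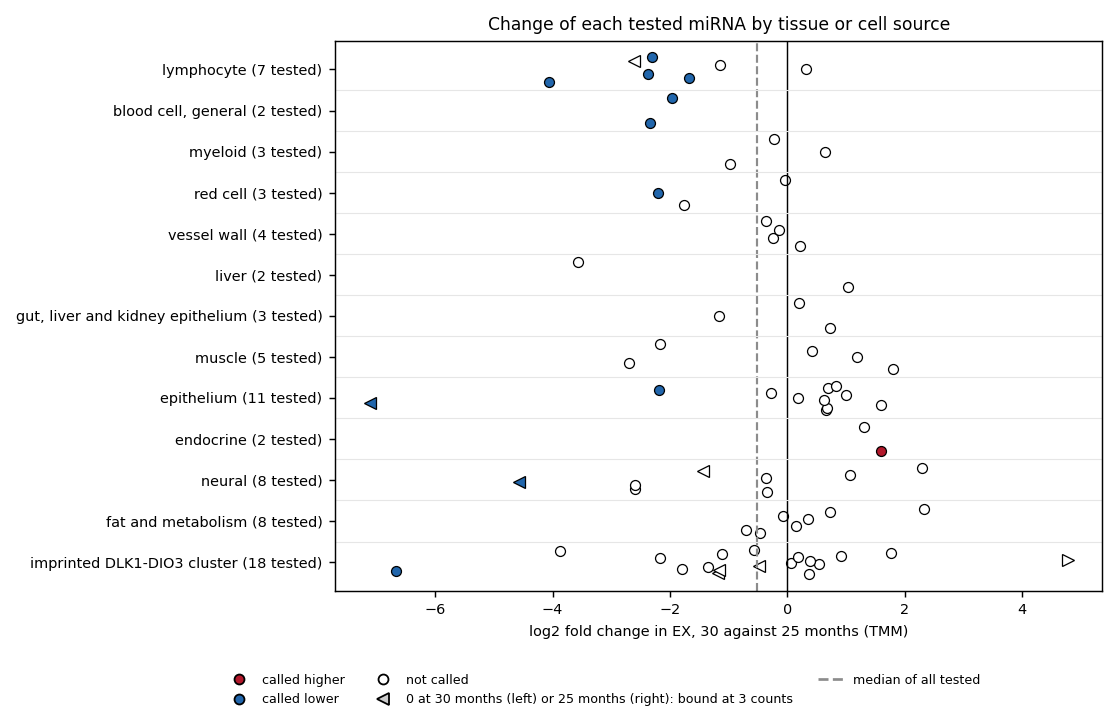
Log2 fold change (TMM) in EX, 30 against 25 months, of every tested miRNA on the 13 source lists, 1 point per miRNA. Red and blue points were called higher and lower, and white ones were not called. Triangles mark the value at the floor of 3 counts where 1 age was at 0. The dashed line is the median of all tested miRNAs (−0.51). The 4 blue points of the lymphocyte list lie between −4.06 and −1.67, and the red point is *bta-miR-375*.

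Of 43 seed families with at least 2 tested members, 16 had a DE-miRNA, and in 15 of these other members were not called. Over all tested miRNAs 14.2% were called, and nothing about families is read from this count. The miR-30 family, expressed in most tissues, had 3 of 6 members lower and 0 higher. *bta-miR-30b-5p* went from 421, 576 and 529 CPM to 96.3, 53.5 and 128 CPM (log2 fold change −2.98, SE 0.39, FDR 0.00295). *bta-miR-30c* followed it closely, from 634, 698 and 947 CPM to 173, 78.7 and 159 CPM (−2.98, SE 0.37, FDR 0.00295). Both dropped furthest in steer 2.

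The next 3 members were more abundant. *bta-miR-30e-5p* fell by 1.02 (SE 0.27, FDR 0.0410), from 15770, 19172 and 21115 CPM to 13890, 11452 and 12825 CPM, and lost its call on library totals. *bta-miR-30a-5p*, which differs from it at 1 position, had 3422, 6522 and 2398 CPM at 25 months and 5244, 7581 and 8755 CPM at 30 months (0.47, SE 0.29, FDR 0.322). *bta-miR-30d* had a log2 fold change of 0.01 (SE 0.23, FDR 0.978) and no stable sign. The reads of the 6 members summed to 27823, 37099 and 34265 CPM at 25 months and to 31418, 32449 and 33724 CPM at 30 months, and the family total was not called (−0.64, SE 0.32, FDR 0.251, with −0.02 on library totals). Counts of *bta-miR-30b-5p*, *bta-miR-30c* and *bta-miR-30e-5p* include fractions of reads shared with other miRNAs, and differences between members were not tested.

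MiRNAs with the seeds of the growth-promoting miR-17-92 cluster were divided. Of the miR-92 seed, *bta-miR-92a* fell from 12246, 10222 and 13077 CPM to 6380, 6078 and 7151 CPM (−1.33, SE 0.25, FDR 0.00992), a call that was lost on library totals. *bta-miR-32*, of the same seed, fell from 1349, 1639 and 2454 CPM to 686, 274 and 220 CPM (−2.78, SE 0.53, FDR 0.0102). *bta-miR-25*, the most abundant member, was not called, with a log2 fold change of 0.18 (SE 0.31, FDR 0.776) that became −0.18 when *bta-miR-93* was held level. Of the miR-19 seed, *bta-miR-19b* fell from 1570, 1028 and 1388 CPM to 741, 404 and 950 CPM (−1.44, SE 0.23, FDR 0.00607), and its call too was lost on library totals, where it stood at −0.99. The miR-17 seed had 1 lower member of 6, *bta-miR-20a* (−1.06, SE 0.21, FDR 0.0111), which was not called on library totals. Its most abundant member, *bta-miR-93*, the control miRNA of the study's qPCR, had 14914, 10766 and 8485 CPM at 25 months and 26671, 16152 and 17308 CPM at 30 months (0.37, SE 0.30, FDR 0.469, with 0.81 on library totals). When all libraries were scaled to *bta-miR-93*, there were 38 DE-miRNAs, 4 higher and 34 lower.

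With TMM scaling, families with higher members were fewer. On library totals the miR-29 family and the miR-200 and miR-141 family had higher members as well, and several families lost their lower calls. In the miR-130 and miR-301 family, *bta-miR-130b* rose in every steer, from 389, 92.2 and 80.6 CPM to 1523, 839 and 659 CPM (2.25, SE 0.37, FDR 0.00730). Steer 1 was the highest at both ages, and its value of 25 months lay below the lowest of 30 months. *bta-miR-130a* went from 431, 371 and 174 CPM to 1283, 1248 and 894 CPM (1.43, SE 0.28, FDR 0.0117), while *bta-miR-301a* of the same seed had an estimate of −0.63 (SE 0.40, FDR 0.346). In the miR-148 and miR-152 family, which targets DNMT1, *bta-miR-152* rose from 944, 905 and 332 CPM to 1709, 2091 and 2069 CPM (1.10, SE 0.30, FDR 0.0413). *bta-miR-148a*, abundant in liver, passed the FDR but not the fold threshold, with 0.83 (SE 0.21, FDR 0.0332), from 2888, 5553 and 2089 CPM to 6470, 10351 and 7385 CPM, and was called on library totals. *bta-miR-320a*, which is made without Drosha, rose from 3148, 2160 and 1480 CPM to 6178, 7370 and 4869 CPM (1.02, SE 0.23, FDR 0.0226).

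Both tested members of the miR-26 family, which targets EZH2, fell. *bta-miR-26a* went from 5239, 6833 and 10095 CPM to 3978, 2083 and 2879 CPM (−1.77, SE 0.39, FDR 0.0207), and *bta-miR-26b* from 16081, 20668 and 21540 CPM to 16051, 10766 and 12811 CPM (−1.02, SE 0.28, FDR 0.0436). On the CPM scale steer 1 hardly moved in *bta-miR-26b*, whose call was lost on library totals. In the miR-29 family, which targets collagen mRNAs, *bta-miR-29b* fell (−1.11, SE 0.26, FDR 0.0269, not called on library totals) but *bta-miR-29c* stood at 7192, 6218 and 3502 CPM against 12890, 11205 and 14150 CPM (0.77, SE 0.24, FDR 0.0654), and *bta-miR-29c* was called higher on library totals. These sequences differ at 3 of 22 positions. Of 9 members of the let-7 family, which restrains growth genes, *bta-let-7g* fell (−1.22, SE 0.33, FDR 0.0411) and 8 were not called. On library totals the family had 0 calls, and its median of −0.38 became 0.07.

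*bta-miR-374a* fell steeply, from 517, 717 and 923 CPM to 81.2, 151 and 75.7 CPM (−3.31, SE 0.43, FDR 0.00295). The miR-15 and miR-16 family held the most abundant miRNA of 30 months and gave 0 calls among 7. *bta-miR-16b* stood at 154656, 101861 and 126052 CPM at 25 months and at 172354, 96040 and 124712 CPM at 30 months, with an estimate of −0.42 (SE 0.41, FDR 0.556) that was 0.03 on library totals. *bta-miR-21-5p*, next in abundance at 30 months, had an estimate of −0.16 (SE 0.29, FDR 0.790) that was 0.32 on library totals. Of the other listed families, miR-10, miR-99 and miR-100 gave 1 lower call in 5 (*bta-miR-99a-5p*, −1.26, SE 0.33, FDR 0.0389) and 0 on library totals. The miR-18, miR-23, miR-24, miR-27, miR-103 and miR-107, miR-125, miR-133, miR-146, miR-192 and miR-215, miR-199, miR-221 and miR-222, miR-378, and miR-1 and miR-206 families gave 0.

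**Figure D4:**
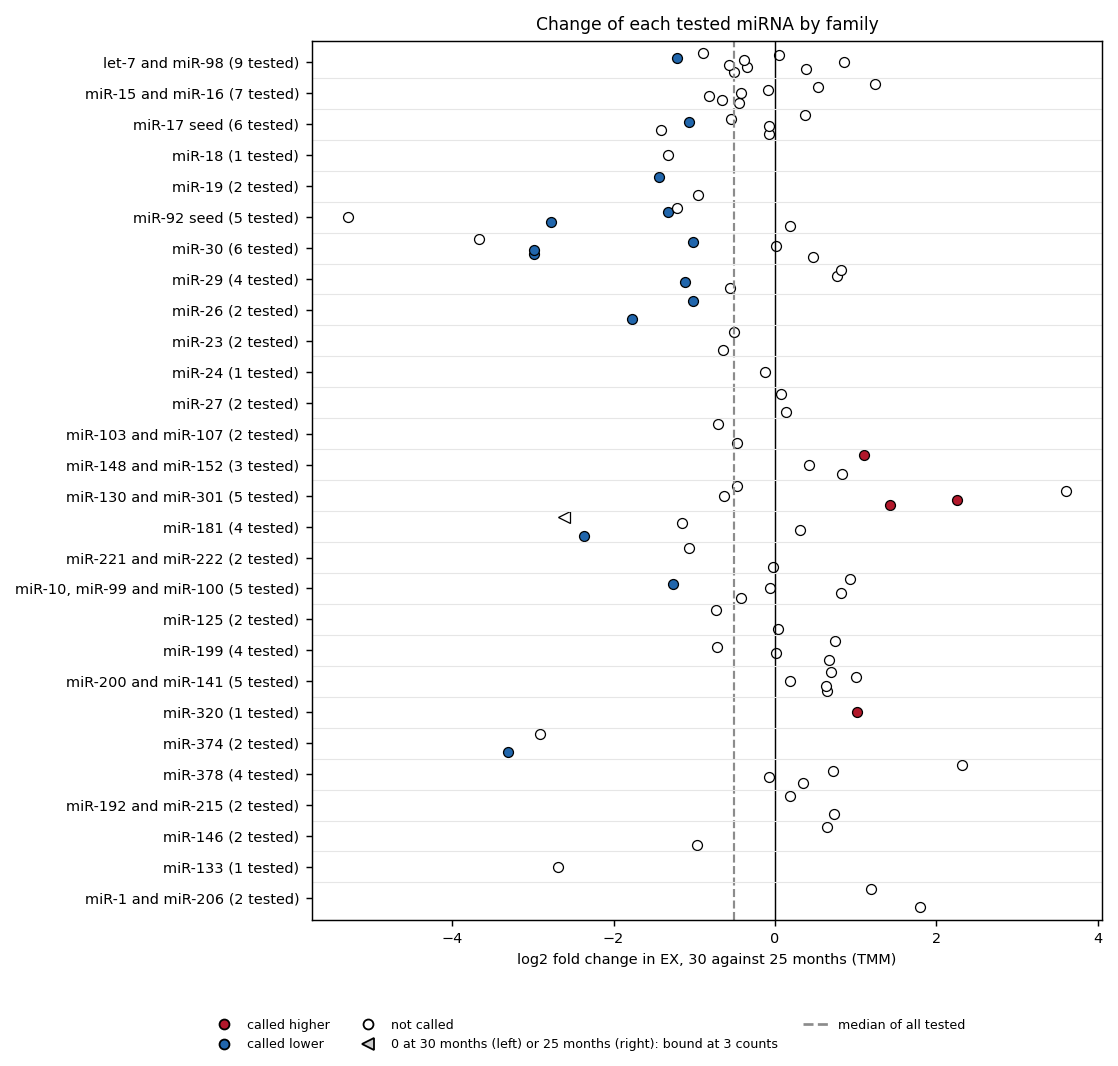
Log2 fold change (TMM) in EX, 30 against 25 months, of every tested miRNA in 28 listed families, 1 point per miRNA, with colours and dashed line as in the plot of the source lists. In the miR-30 row the 3 blue points lie at −2.98, −2.98 and −1.02 beside white points on either side of 0, and the red points are *bta-miR-130a*, *bta-miR-130b*, *bta-miR-152* and *bta-miR-320a*.

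Counts were also summed over each seed, which removes the division of shared reads among members. Of 269 seed families 27 (10%) were called, 7 higher and 20 lower, and 71 had an unadjusted p under 0.05. Most were single miRNAs, and 5 had more than 1 tested member. The seed of *bta-miR-19a* and *bta-miR-19b* fell by 1.38 (SE 0.25, FDR 0.0107), and that of *bta-miR-374a* and *bta-miR-374b* by 3.25 (SE 0.42, FDR 0.00388). The seed of *bta-miR-2285bf* and *candidate-miR-5* changed by −3.11 (SE 0.44, FDR 0.00602), while that of *bta-miR-28* and *bta-miR-708* was at or near 0 counts at 30 months. The seed of *bta-miR-760-3p* and *bta-miR-1842* rose by 2.05 (SE 0.38, FDR 0.0107). Sums of the miR-130 and miR-301 seed (0.94, SE 0.25, FDR 0.0518) and of the miR-26 seed (−1.36, SE 0.37, FDR 0.0518) missed the threshold. The let-7, miR-17, miR-92, miR-29 and miR-148 sums were not called either, with FDR from 0.0990 to 0.969. On library totals the miR-130 and miR-301 sum (FDR 0.0236) and the miR-148 sum (FDR 0.0135) were called higher.

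Among miRNAs outside the lists, *candidate-miR-40*, an unnamed miRNA proposed by the authors from these reads, had the largest rise of the 13 higher DE-miRNAs. It stood at 471, 641 and 325 CPM at 25 months and at 3978, 7173 and 3490 CPM at 30 months (log2 fold change 2.89, SE 0.30, FDR 0.00295). *candidate-miR-38* went from 169, 342 and 115 CPM to 1401, 1980 and 1160 CPM (2.48, SE 0.43, FDR 0.00794). Both are 18 bases long, and steer 2 was highest for both at both ages. *bta-miR-1246*, whose human counterpart overlaps the U2 small nuclear RNA, went from 939, 763 and 1185 CPM to 3129, 5341 and 5439 CPM (1.79, SE 0.26, FDR 0.00452).

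*bta-miR-193a-5p* rose from 413, 276 and 228 CPM to 1284, 2322 and 1612 CPM (2.02, SE 0.36, FDR 0.00794), and *bta-miR-760-3p* from 112, 153 and 71.0 CPM to 655, 798 and 564 CPM (2.17, SE 0.37, FDR 0.00794). *bta-miR-6529a* rose from 369, 318 and 199 CPM to 1506, 1725 and 1277 CPM (1.92, SE 0.38, FDR 0.0117). The hypoxia-induced *bta-miR-210*, named after its values were seen, went from 59.5, 47.9 and 68.5 CPM to 326, 279 and 309 CPM (1.93, SE 0.52, FDR 0.0413). For each of these, the lowest value of 30 months exceeded the highest of 25 months. In the other direction, *bta-miR-197* fell from 956, 820 and 670 CPM to 189, 215 and 344 CPM (−2.19, SE 0.33, FDR 0.00509), and *bta-miR-2285bf*, of a large ruminant family, from 349, 459 and 547 CPM to 47.1, 91.3 and 112 CPM (−2.95, SE 0.39, FDR 0.00295).

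Part of the lower calls were miRNAs that disappeared from the 30 months libraries. Of the tested miRNAs 46 had 0 counts in all 3, and 9 of these were DE-miRNAs, with mean levels at 25 months from 18.5 to 336 CPM. These 46 passed the filter on low counts only through libraries of 20 and 25 months, which favours lower calls, and just 3 tested miRNAs were at 0 in all libraries of 25 months. Apart from the 46, 27 miRNAs were called lower and 13 higher. The 27 still include *bta-miR-28* (0, 0.504 and 0 CPM at 30 months) and *bta-miR-154c* (0, 0 and 0.924 CPM). Both passed the filter only through libraries of 20 and 25 months as well. For miRNAs at 0 in all 3, the change was set against a floor of 3 counts per library, a mean of 2.44 CPM at 30 months. This floor covers counting error alone, since reads copied by PCR are not independent. The 10th percentile of counts of at least 1 was higher, at 25.7 to 35.8 CPM at 30 months and 4.92 to 9.25 CPM at 25 months. Whether a 0 at 30 months stands for a level above the floor was not tested. The fold values below therefore hold only if detection reached 3 counts, and are not lower bounds otherwise. At this floor *bta-miR-184* was 138-fold lower (FDR 0.00295), or 62.5-fold without the high 25 months value of steer 1. By the same floor *bta-miR-1249* was 24.5-fold lower (FDR 0.00930), *bta-miR-132* 23.9-fold (FDR 0.0102) and *bta-miR-491* 16.2-fold (FDR 0.0281). *bta-miR-500*, at 81.0, 157 and 8 counts in steers 1 to 3 at 25 months, was 17.1-fold lower at the floor but not called (FDR 0.0545). Without steer 2 at 25 months this value was 8.06-fold. Counts of *bta-miR-1249* at 25 months were even, at 139, 115 and 133.

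Calls were spread unevenly over abundance. Below a mean of 50 CPM, 152 miRNAs gave 0 higher and 10 lower calls, with a median SE of 2.42. Of these 152, 45 were at 0 in all libraries of 30 months, among them 8 of the 10, so the filter itself weighs this band towards lower calls. From 50 to 500 CPM, 97 miRNAs gave 3 higher and 5 lower calls, from 500 to 5000 CPM 57 gave 10 and 13, and above 5000 CPM 39 gave 0 and 8. These splits are those of TMM scaling. In the band above 5000 CPM, *bta-miR-29c* and *bta-miR-148a* were called higher on library totals, and *bta-let-7g*, *bta-miR-26b* and *bta-miR-30e-5p* were not called. With a mean above 100 CPM, 159 miRNAs had a median log2 fold change of −0.16 (0.32 on library totals) and included all 13 higher and 26 of the 36 lower DE-miRNAs. In base composition, the higher DE-miRNAs had a median G+C content of 52.2% (quartiles 45.5 and 59.1%) and the lower ones of 40.9% (34.9 and 48.5%), against 46.6% of the miRNAs not called. Median length was 22.0 bases in all 3 classes. This is a description of the mature sequences, without a test.

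Levels at 20 months were closer to those of 25 months. Between 20 and 25 months 1 miRNA was called and 8 had an unadjusted p under 0.05 in edgeR. Between 20 and 30 months 46 were called, and 37 of the 49 DE-miRNAs were among them with the same direction, although both comparisons share the libraries of 30 months. *bta-miR-150* had a log2 fold change of −3.93 (FDR 0.00693) from 20 to 30 months and *bta-miR-451* one of −1.84 (FDR 0.0470).

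The FC libraries of the same plasma samples allow a test of whether the change belongs more to the EX fraction. Of 330 miRNAs tested in both, 26 (7.88%) changed differently in EX and FC (interaction, edgeR, FDR under 0.05), and 53 had an unadjusted p under 0.05. In 20 of the 26 the EX counts were 0 in all libraries of 30 months, so that these passed the filter in EX only through the younger libraries and their count is no measure of a difference between the fractions. The other 6 had EX counts at 30 months. For *bta-miR-154c* (0, 0 and 0.924 CPM) and *bta-miR-17-3p* (0.503, 0 and 0 CPM), both named after their values were seen, these were near 0. Both too passed the filter in EX only through the younger libraries. The 4 with a change more positive in EX were DE-miRNAs. *bta-miR-320a* rose in EX but stood at 2556, 1830 and 1233 CPM against 1751, 1634 and 1819 CPM in FC, a difference of 1.29 on the log2 scale (SE 0.25, FDR 0.00961). For *bta-miR-130b* the EX change exceeded the FC change by 1.51 (SE 0.43, FDR 0.0481), for *bta-miR-1246* by 1.42 (SE 0.41, FDR 0.0481) and for *bta-miR-375* by 0.91 (SE 0.25, FDR 0.0479). The FC changes themselves were 0.79, 0.41 and 0.78, of the same sign as in EX. *bta-miR-150* and *bta-miR-342* were not among the 26 and fell in FC as well, by 3.38 (FDR 0.0136) and 1.81 (FDR 0.0353). In all, 24 of the 49 DE-miRNAs were called in FC in the same direction, 6 higher and 18 lower. The share of all 330 miRNAs called in FC is not given here, so no likeness of the fractions is read from this count. The interaction calls fell to 0 without steer 1 (38 at an unadjusted p under 0.05), to 10 without steer 2 and to 0 without steer 3 (69).

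**Figure D5:**
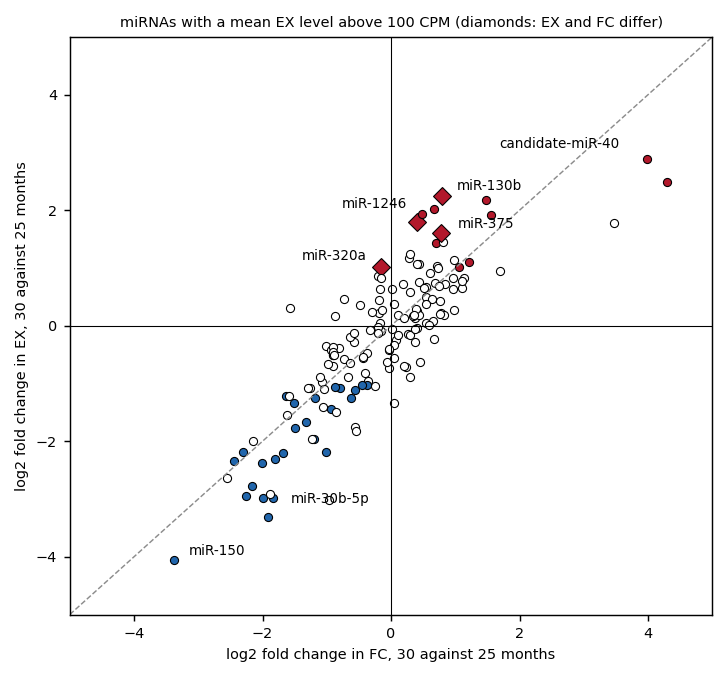
Log2 fold change in EX (vertical) against that in FC (horizontal), 30 against 25 months, for 157 miRNAs with a mean EX level above 100 CPM, 1 point per miRNA. Red and blue were called higher and lower in EX, and the dashed line marks equal change. The 4 diamonds above the line are *bta-miR-320a*, *bta-miR-375*, *bta-miR-1246* and *bta-miR-130b*, which differ between the fractions, and *bta-miR-150* lies low in both.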

How the data were processed

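The authors sequenced 18 small RNA libraries, an EX and an FC library from each of 9 plasma samples (single-end, Illumina NovaSeq), trimmed reads with cutadapt 5.0 and Trimmomatic 0.39, checked them with FastQC 0.12.1 and assigned them to known and candidate miRNAs with miRDeep2. The deposited values used here are estimated counts (expected counts, fractional where reads are shared), and the authors' CPM served to check rows: EX rows matched within 0.02 counts, and in 4 FC libraries 77 to 101 displaced counts were recomputed from CPM. No column lacked a sample (0). Sequences came from the study's supplementary tables, which pair each miRNA with its mature sequence.

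Counts were rounded, filtered (CPM above 5 in at least 3 of 9 EX libraries), scaled by TMM and fitted over the 9 EX libraries in edgeR 4.0.16 (R 4.3.3), with age and steer as terms of a quasi-likelihood F test. P-values were adjusted by Benjamini and Hochberg, and SE is the absolute log2 fold change over the square root of F. The interaction used all 18 libraries. DESeq2 1.42.0, a likelihood ratio test, other scalings, filters and omitted libraries were alternatives. Scripts were tested on simulated data. Tables used Python 3.11.15 with pandas 2.3.3, and figures matplotlib 3.10.9.

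The steer block rests on the study's statement that the same 3 steers were sampled at each age, and on matching them by replicate number. The deviations of same-numbered libraries from their group means correlated at 0.07, −0.02 and 0.02 between 25 and 30 months for steers 1 to 3.

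The members and lists were chosen with earlier results of these data known. Named miRNAs are the 10 higher and 10 lower DE-miRNAs of smallest FDR, the 3 most abundant tested members of each list and family, the 5 most abundant at 25 months among those at 0 in all libraries of 30 months, *bta-miR-93*, the 3 most abundant at 30 months, and others where marked. Some miRNAs called lower in a list are named beside its count.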

Additional observations from a re-analysis of the deposited data

Results flagged for a closer look

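By the interaction test of edgeR, 26 of 330 miRNAs did not change alike in EX and FC from 25 to 30 months, and the named ones among them are given because the change from 25 to 30 months differed between the fractions, mostly in size. The FDR of the interaction was 0.00961 for *bta-miR-320a*, 0.0479 for *bta-miR-375*, 0.0481 for *bta-miR-1246* and 0.0481 for *bta-miR-130b*, each with the more positive change in EX. In FC the log2 fold change was −0.16 (FDR 0.606) for *bta-miR-320a*, 0.78 (FDR 0.0489) for *bta-miR-375*, 0.41 (FDR 0.287) for *bta-miR-1246* and 0.79 (FDR 0.0691) for *bta-miR-130b*. The more negative change in EX belonged to *bta-miR-1249* (FDR 0.00130), *bta-miR-184* (FDR 0.0186), *bta-miR-500* (FDR 0.0346), *bta-miR-132* (FDR 0.0484) and *bta-miR-491* (FDR 0.0484), which had 0 counts in all EX libraries of 30 months and passed the EX filter only through younger ones. In FC at 30 months *bta-miR-1249* was still present at 30.8 to 56.4 CPM and *bta-miR-500* at 3.49 to 30.2 CPM, while *bta-miR-184*, *bta-miR-132* and *bta-miR-491* were at 0 in at least 1 library. At 25 months the mean EX level of *bta-miR-184* was 336 CPM against 15.1 CPM in the FC libraries, and that of *bta-miR-1249*, with a negative estimate in FC too (−1.06, FDR 0.0845), was 59.6 against 84.8 CPM. EX libraries of 30 months had fewer counts than FC ones, and the part of depth in these differences was not tested.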

How the results depend on the processing

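The number of DE-miRNAs was 49 (13 higher, 36 lower). It became 90 by the likelihood ratio test (17 higher, 73 lower), 85 by DESeq2 (24 higher, 61 lower) and 32 with only the libraries of 25 and 30 months (10 higher, 22 lower). On library totals 21 were higher and 21 lower (26.5% of calls were higher with TMM), scaled to *bta-miR-93* 4 higher and 34 lower, and with a mean CPM above 100 as the filter 16 higher and 20 lower of 160 (44.4% higher). Scaling to library totals and to *bta-miR-93* moved the median of all tested miRNAs by 0.47 and −0.32. DESeq2 size factors gave 45 and no filter 37 of 572. With no replicate block, that is without the pairing by steer, 66 were called (52 lower), 39 seed families and 26 interactions. The cause of these shifts was not tested.

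Leaving out 1 steer or 1 library gave 0 to 46 DE-miRNAs, 0 to 12 higher and 0 to 34 lower. Single libraries mattered, with 30, 21 and 24 calls without the 25 months library of steer 1, 2 or 3, and 46, 27 and 22 without that of 30 months. Seed families numbered 27, with 61 by the likelihood ratio test, 33 on library totals, 33 by bases 2 to 7, and 0 to 29 without a steer (0 without steer 1, with 55 at an unadjusted p under 0.05, and 1 without steer 3). Interaction calls numbered 26, with 23 when blocked by plasma sample, 22 on library totals, 31 with FC counts as deposited, and 0 to 10 without a steer.

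Over 62 named miRNAs and 18 settings, 877 of 1111 values kept direction and call, 183 lost the call, 20 gained it and 31 turned direction, all of the last in 8 miRNAs not called. *bta-miR-16b* became 0.03 on library totals, *bta-miR-21-5p* 0.32 there and 0.00 with the stricter filter, and *bta-miR-223* 0.19 on library totals. *bta-miR-25* became −0.18 and *bta-miR-215* −0.10 scaled to *bta-miR-93*. *bta-miR-30d* became −0.36 scaled to *bta-miR-93*, −0.00 with no filter, −0.01 with no replicate block and −0.00 with only 25 and 30 months. *bta-miR-486* became 0.07 with DESeq2 size factors, 0.39 on library totals, 0.17 with the stricter filter, 0.07 by DESeq2 and 0.04 with only 25 and 30 months. With a steer or library left out, the ranges were −0.68 to 0.39 for *bta-miR-223*, −0.10 to 0.36 for *bta-miR-25*, −0.22 to 0.19 for *bta-miR-30d*, −0.43 to 0.65 for *bta-miR-486*, −0.58 to 2.38 for *bta-miR-206* and −0.06 to 0.34 for *bta-miR-215*.

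With 3 steers, small changes of scarce miRNAs were not detectable. A floor of 3 counts was 1.23 to 1.63 CPM in the libraries of 25 months and 1.51 to 3.03 CPM in those of 30 months, for counting error only. Fractional counts occurred in 22 of the 49 DE-miRNAs and 141 of the 345 tested.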

Other observations

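Of the tested miRNAs, 3 had 0 counts in all EX libraries of 25 months and counts at 30 months, none of them called. *bta-miR-409a*, of the imprinted DLK1-DIO3 cluster, had 0, 74.6 and 39.7 CPM at 30 months in steers 1, 2 and 3. *candidate-miR-21* had 87.8 CPM in steer 2 and 33.2 CPM in steer 3, and *bta-miR-383* had 75.7 CPM in steer 2. The rows of *bta-miR-129* and *bta-miR-129-5p* hold the same values in the EX libraries, so that the neural list counts 1 signal under both names. *bta-miR-194b* stood at 126 to 369 CPM in the 7 EX libraries in which *bta-miR-194* was listed at 0, and at 0 to 0.161 CPM in the other 11 libraries.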
